A study of Mus musculus with 15 samples.

Results

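Trabecular-type ventricular cardiomyocytes of the mid-gestation mouse heart are described here from Drop-seq, which tags the polyadenylated RNA of single cells with a bead barcode and with unique molecular identifiers (UMIs). The members were chosen by measured UMIs. A barcode needed at least 300 detected genes, at least 2% of its UMIs from the sarcomere genes Actc1, Tnnt2, Tnni1, Tnnc1, Myl4, Myl7 and Ttn, and at least 3 UMIs of the ventricular genes Myl2, Myl3, Mb and Ckm. These ventricular UMIs also had to exceed those of the atrial genes Sln, Mybphl, Myl1 and Vsnl1. Of the 18462 ventricular barcodes found this way among 55152 deposited barcodes, 7367 (39.9%) held 2 or more UMIs of Nppb, Cited1, Gja5 and Gtsf1 in sum and are the trabecular-type barcodes. A further 3529 held 1 UMI of these genes and 7566 held 0. Each library contributed 318 to 732 trabecular-type barcodes, with a median of 470.

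The libraries were made from whole hearts of C57BL6/N embryos at E14.5, 8 from Adamts19 homozygous knockout (KO) embryos and 7 from wild-type (WT) embryos. Adamts19 encodes a secreted metalloprotease, and the series asks what its loss does in a heart prone to valve disease. KO replicates 1 to 4 carry the allele tm4a and come from litter 5 (replicate 1) and litter 6 (replicates 2 to 4), while KO replicates 5 to 8 carry the allele tm4b and come from litter 7. WT replicates 1 and 2 come from litter 1, replicates 3 and 4 from litter 2, replicate 5 from litter 3, and replicates 6 and 7 from litter 4. No litter holds both genotypes or both alleles. Of the WT libraries, replicate 5 was sequenced on the flow cell that held the 8 KO libraries, and replicates 1 to 4, 6 and 7 on different ones. How many embryos went into a library, and what the alleles delete, is not stated in the sources used here.

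Trabeculae are the muscle ridges that line the inner face of the embryonic ventricle, whereas the compact wall outside them holds more dividing cells. Trabecular muscle cells divide less, secrete natriuretic peptides, and in part give rise to the fast conduction network of Purkinje fibres. Nppa and Nppb encode the atrial and B-type natriuretic peptides, Gja5 encodes the connexin of fast-conducting atrial, Purkinje and arterial cells, and Cited1 encodes a transcriptional co-regulator. Gtsf1 is known for its part in the piRNA pathway of germ cells.

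Nppb and Nppa are neighbours on chromosome 4, 13517 bases apart, and Gja5 lies on chromosome 3. Their promoters, from 250 bases before to 50 after the start in RefSeq (GRCm38.p6), are shown because these are the secreted and conduction genes that mark the members. Letters matching NGATAA (GATA factors), TNAAGTG (NKX2-5) or GGTGTG (T-box factors) on either strand are in capitals. The windows are chr4:147985650-147985949, chr4:148000472-148000771 and chr3:97032152-97032451, all on the plus strand. The Nppa and Gja5 windows are built on the first base of the gene record. The gene record of Nppb begins at base 147985786, ahead of the start on which its window is built.
Nppb: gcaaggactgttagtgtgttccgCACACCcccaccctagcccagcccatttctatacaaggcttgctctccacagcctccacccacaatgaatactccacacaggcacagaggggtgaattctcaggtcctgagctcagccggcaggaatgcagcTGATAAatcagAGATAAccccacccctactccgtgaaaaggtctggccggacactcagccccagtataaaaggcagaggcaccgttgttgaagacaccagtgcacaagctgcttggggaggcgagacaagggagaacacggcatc
Nppa: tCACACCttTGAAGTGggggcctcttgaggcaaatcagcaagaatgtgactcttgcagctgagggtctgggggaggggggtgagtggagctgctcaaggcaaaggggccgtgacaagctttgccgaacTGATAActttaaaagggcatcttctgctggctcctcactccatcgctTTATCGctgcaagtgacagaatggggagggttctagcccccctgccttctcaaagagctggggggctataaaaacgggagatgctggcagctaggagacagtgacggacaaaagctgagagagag
Gja5: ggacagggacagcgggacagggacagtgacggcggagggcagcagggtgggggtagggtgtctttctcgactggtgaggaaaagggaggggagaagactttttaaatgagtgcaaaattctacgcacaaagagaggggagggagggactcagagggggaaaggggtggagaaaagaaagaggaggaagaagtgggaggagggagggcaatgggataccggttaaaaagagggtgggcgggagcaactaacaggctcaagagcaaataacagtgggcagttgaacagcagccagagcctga
The Nppb window held 2 GATA matches and 1 T-box match, and the Nppa window 2 GATA matches, 1 NKX2-5 match and 1 T-box match. The Gja5 window held 0 matches to any of these motifs. No match overlapped another. Among 32851 promoter windows of this length, 25.3% hold the GATA letters, 11.5% the NKX2-5 letters and 19.05% the T-box letters, so a match is common and says only that the letters are there.

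The 15 libraries held 5477109 to 11340443 UMIs in all, with a median of 8468851, and their trabecular-type barcodes summed to 1154346 to 3177286 UMIs. The trabecular-type barcodes were deeper than the others, with a median of 3451 UMIs against 1641 in ventricular barcodes with 1 UMI of the 4 genes and 1022.5 in those with 0. A shallow barcode reaches 2 UMIs less easily, so the shares, the ratios to 0-UMI barcodes and the genotype effects in trabecular-type and in all ventricular barcodes are also given after barcodes were thinned to 1000 UMIs and the rule was applied again. Barcodes under 1000 UMIs were left out of the thinned values, 3376 of 9824 ventricular barcodes in KO and 2631 of 8638 in WT libraries. The bands of UMIs, the genotype effects in 0-UMI barcodes and the genes between alleles were not thinned. No trabecular-type barcode sequence occurred in more than 1 library, and 87 of the 55053 distinct sequences of the series did. WT replicates 1 to 4, which come from the first 2 litters, held the lowest and the highest WT shares of trabecular-type barcodes, and results are given without them where that matters.

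Cited1 was the main contributor to the choice. It was detected in 83.5% of members and gave 50.4% of their UMIs of the 4 genes. Nppb was detected in 54.6% and gave 30.7% of these UMIs, Gtsf1 in 42.0% and gave 15.5%, and Gja5 in 20.6% and gave 3.35%. Only 1 of the 4 genes was seen in 2338 members, 2 genes in 3113, 3 genes in 1437 and all 4 in 479. The median member held 4 UMIs of the 4 genes, 25.6% sat at the minimum of 2, 24.7% held 10 or more, and the highest count was 197.

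Each of the 4 genes was higher in barcodes that held the other 3 in sum, though few members held all 4. When each gene in turn was left out of the rule and measured in barcodes chosen by the other 3, it was higher in barcodes with 2 or more UMIs of those 3 than in barcodes with 0, in 15 of 15 libraries for each gene. Cited1 averaged 1229 CPM (UMIs scaled to a common total per sum) in barcodes chosen by Nppb, Gja5 and Gtsf1, against 326 CPM in barcodes with none of them, a log2 ratio of 1.85 ± 0.26 (SD, n = 15 libraries, 20 CPM added to both). Nppb averaged 641 against 221 CPM (1.46 ± 0.37), Gtsf1 334 against 63.5 CPM (2.07 ± 0.32), and Gja5 66.5 against 16.4 CPM (1.24 ± 0.36). After thinning the log2 ratios were 2.03 for Cited1, 1.63 for Nppb, 2.49 for Gtsf1 and 1.51 for Gja5. The ratios are a description, since the rule was written with these genes known to mark 1 group of barcodes.

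The 4 genes in sum were seen in atrial-type muscle too and seldom outside muscle. Atrial-type muscle barcodes held 2 or more UMIs of the 4 genes in 50.04% of 3581 cases at a median of 2637 UMIs. Endothelial barcodes did so in 2.13% of 5952 cases (exact 95% interval 1.78% to 2.53%, median 2116 UMIs), and mesenchymal barcodes in 0.750% of 15859 (0.622% to 0.897%, median 1771 UMIs). Leukocyte barcodes, which should lack all 4 genes, did so in 0.332% of 904. After thinning the shares were 25.6% in ventricular, 26.9% in atrial-type, 0.588% in endothelial, 0.265% in mesenchymal and 0.153% in leukocyte barcodes. The non-muscle classes leave out barcodes that meet the sarcomere minimum, so their shares hold free RNA but not the doublets with muscle cells that meet it, and the intervals cover counting error only. The genes differed in the atria: Gtsf1 stood at 358 CPM in members and 23.3 CPM in atrial-type barcodes, Cited1 at 1164 and 559 CPM, and Nppb at 708 and 547 CPM.

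Members held more UMIs of ventricular than of atrial muscle genes, as the rule required. The atrial genes of the rule in sum made up 0.0221% of UMIs in members and 0.0137% in 0-UMI ventricular barcodes. Sln alone went the other way, at 29.9 and 47.9 CPM. Myl2, the ventricular regulatory light chain, stood at 11851 CPM in members against 179.9 CPM in atrial-type barcodes, and Sln, the atrial regulator of the calcium pump, at 29.9 against 1837 CPM. Both genes belong to the rule, so these levels are a description. Nppa, which the rule did not use, stood at 4988 CPM in members, below the 14400 CPM of atrial-type barcodes, above the 512 CPM of ventricular barcodes with 0 UMIs of the 4 genes, and above the 175 to 216 CPM of non-muscle barcodes. Gja5 stood at 77.2 CPM in members, 116 CPM in atrial-type, 19.3 CPM in endothelial and 3.83 CPM in mesenchymal barcodes.

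The members form a range with no break at the minimum. Barcodes just inside it, with 2 UMIs of the 4 genes, held 1070 CPM of Nppa, and those just outside, with 1 UMI, held 713 CPM. Hey2, a transcriptional repressor of the compact wall, stood at 100 CPM just inside and 102 CPM just outside. Barcodes with 10 or more UMIs stood apart: Nppa reached 10629 CPM, the guidance ligand Slit2 123 CPM against 9.43 CPM at 0 UMIs, and Bmp10, a growth factor of trabecular muscle, 14.0 against 0.302 CPM. In the same barcodes Hey2 stood at 40.4 against 106 CPM at 0 UMIs, Mycn, which drives growth of the compact wall, at 26.6 against 50.3 CPM, and the proliferation gene Mki67 at 129 against 200.3 CPM. Median depth moved with the bands, with 5294 UMIs per barcode at 10 or more UMIs of the 4 genes and 2134 at 2 UMIs, and its part in these gradients was not tested.

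**Figure D1:**
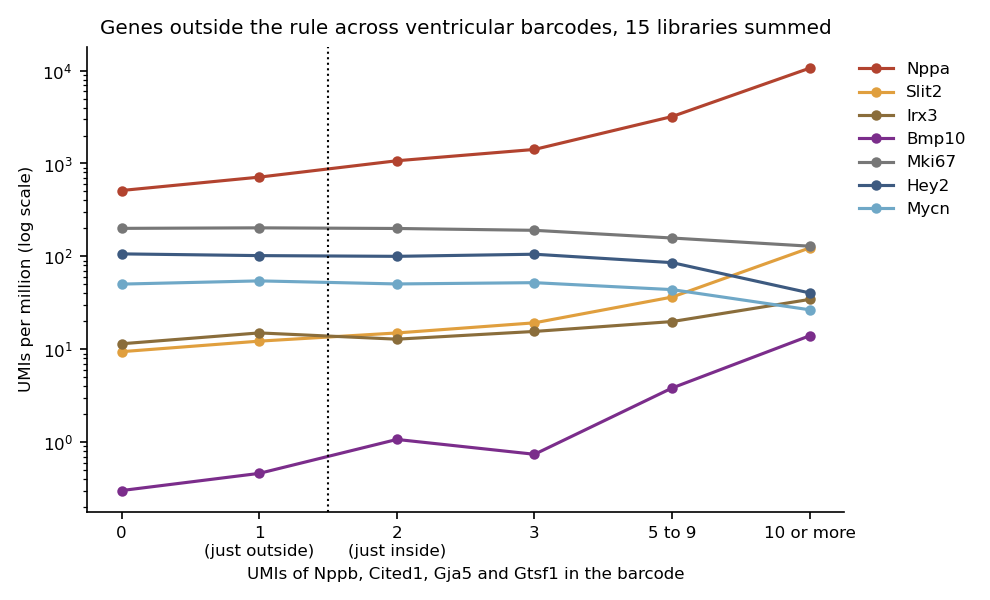
Level in CPM (log axis) of 7 genes outside the rule in ventricular barcodes grouped by their UMIs of Nppb, Cited1, Gja5 and Gtsf1, over all 15 libraries summed; barcodes with 4 UMIs are not drawn, and the dotted line marks the minimum of the rule. Nppa climbs to 10629 CPM at 10 or more UMIs while Hey2 stands at 40.4 there, and the barcodes just inside and just outside the line lie close together.

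Genes outside the rule were then set between trabecular-type and 0-UMI ventricular barcodes of the same library. The choice made this contrast, so no test is given. Among 3368 genes with at least 50 CPM in one of the groups, 128 were higher in trabecular-type barcodes in 15 of 15 libraries (3.80%) and 118 were lower in 15 of 15 (3.50%). After thinning 67 (1.99%) were higher and 74 (2.20%) lower; 47 of the higher and 34 of the lower genes were on the same side in 15 of 15 libraries both ways. The median log2 ratio of all these genes was -0.03, and -0.08 after thinning.

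The natriuretic peptide gene Nppa and the imprinted gene Mest had the highest ratios. Nppa averaged 4792 ± 1159 CPM in trabecular-type and 502 ± 193 CPM in 0-UMI barcodes, a mean log2 ratio of 3.24 ± 0.49 (SD, n = 15 libraries). Mest averaged 1670 ± 305 against 393 ± 121 CPM (2.06 ± 0.31). Slit2 averaged 55.8 ± 20.3 against 8.86 ± 6.16 CPM (1.37 ± 0.36). Gja1, the main gap junction gene of working ventricular muscle, averaged 656 ± 93.3 against 365 ± 64.8 CPM (0.82 ± 0.18). Casq2, the calcium store protein of the sarcoplasmic reticulum, averaged 553 against 320 CPM (0.75 ± 0.20), and Pam, which amidates peptide hormones, 713 against 433 CPM (0.68 ± 0.20). Slc6a6, the taurine transporter, had a log2 ratio of 1.19, the lipid droplet protein gene Fitm1 0.68, Ctgf 0.63 and the vessel growth factor Angpt1 0.55. Lyz2, a lysozyme gene of macrophages, also stood among them at 62.5 against 12.6 CPM (1.33), and at 0.40 once barcodes with 2 or more UMIs of other cell types' markers, Lyz2 among them, were left out.

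The lowest ratios were those of Rspo3 and Tnnt1. Rspo3, a Wnt enhancer, averaged 10.4 ± 2.95 CPM in trabecular-type and 66.4 ± 29.0 CPM in 0-UMI barcodes (-1.43 ± 0.54). The slow skeletal troponin gene Tnnt1 averaged 1006 ± 187 against 2160 ± 466 CPM (-1.08 ± 0.27), and Id2, an inhibitor of basic helix-loop-helix factors, 165 ± 33.7 against 324 ± 69.7 CPM (-0.90 ± 0.23). The potassium channel subunit Kcne1 averaged 190 against 295 CPM (-0.59) and the imprinted RNA H19 3249 against 4802 CPM (-0.56). Igfbp5 (133 against 288 CPM), Igf1 (33.1 against 59.8 CPM) and the collagen gene Col1a1 (51.1 against 102 CPM) were lower in 15 of 15 libraries with all UMIs, and in 13, 12 and 13 of 15 after thinning. Col1a1 is also a mesenchymal marker. Without barcodes that held 2 or more UMIs of other cell types' markers, Col1a1 among them, its ratio was -0.20 instead of -0.67, lower in 13 of 15 libraries. Col1a1 helped to choose the barcodes left out, so this shift cannot show where its UMIs came from. Mesenchymal markers as a list, Col1a1 included, were 0.0287% and 0.0375% of UMIs in the median KO and WT library in trabecular-type barcodes. In 0-UMI barcodes they were 0.0538% and 0.0623%.

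**Figure D2:**
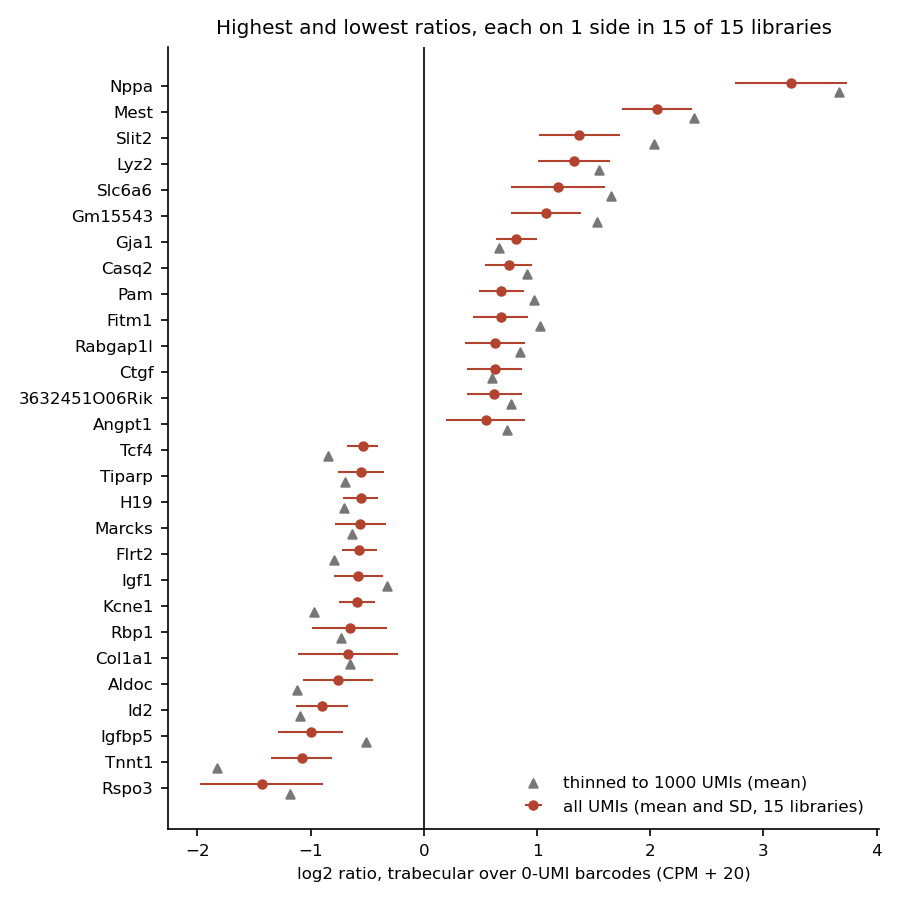
Mean log2 ratio, with 20 CPM added, of trabecular-type over 0-UMI ventricular barcodes for genes among the 15 highest and 15 lowest on 1 side in 15 of 15 libraries; circles with bars give the mean and SD over libraries, and triangles the mean after thinning to 1000 UMIs. Nppa and Mest lie farthest to the right and Rspo3 and Tnnt1 farthest to the left, and the thinned means lie on the same side for every gene drawn.

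Genes known from trabeculae and conduction, written as a list with earlier results known, went both ways. Of the 8 listed genes over 50 CPM 3 were higher and 3 lower in 15 of 15 libraries, at a median log2 ratio of -0.06. Of all 31 listed genes in the table, most of them at low levels, 8 were higher and 4 lower in 15 of 15. The guidance gene Sema3a averaged 23.3 CPM in trabecular-type and 8.63 CPM in 0-UMI barcodes (log2 ratio 0.58), and Ntn1 47.3 against 19.9 CPM (0.74). The potassium channel Kcnk3 averaged 43.7 against 19.5 CPM (0.67), the small muscle protein Smpx 1759 against 1257 CPM (0.48), and Bmp10 5.51 against 0.287 CPM (0.32). These 5 were higher in 15 of 15 libraries, as were Nppa and Slit2, and Irx3, a homeobox factor of fast conduction, in 14 of 15 at 21.9 against 11.3 CPM. Rspo3, Id2 and Kcne1, given above, were lower in 15 of 15 libraries, and so was Cacna1g, a T-type calcium channel, at 5.72 against 13.6 CPM (-0.36). Cacna2d2 (27.7 against 38.0 CPM), Cpne5 (14.8 against 20.1 CPM) and Ryr3 (5.05 against 9.93 CPM) were lower in 12 of 15. Tbx3, which marks nodal tissue, was lower in 14 of 15 libraries at 4.17 against 15.03 CPM, and the connexin gene Gjc1 in 14 of 15 at 41.6 against 60.3 CPM. Corin, the protease that cleaves the Nppa product, was higher in 15 of 15 at 43.1 against 20.8 CPM.

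Of the compact wall list, 2 of 6 genes over 50 CPM were lower in 15 of 15 libraries: Hey2 at 77.1 against 105 CPM (-0.34) and Tbx20, a T-box factor of the growing wall, at 200 against 266 CPM (-0.37). Mycn was lower in 11 of 15 and the cyclin genes Ccnd1 and Ccnd2 were higher in 10 and 11 of 15. None of the 3 genes over 50 CPM of the Notch, neuregulin and ephrin list was on 1 side in 15 of 15 libraries, and the Notch ligands and the receptors Notch1 (5.48 against 10.4 CPM) and Erbb4 (19.9 against 26.6 CPM) were low in both groups. Sarcomere and Z disc genes were higher in 15 of 15 libraries in 5 of 29 (8 of 29 thinned), nuclear oxidative phosphorylation genes in 21 of 64 (2 of 64 thinned), and 5 of 16 cardiac transcription factors were lower (3 thinned). Glycolysis genes were lower in 4 of 18 and higher in 2 of 18, against 7 and 1 after thinning. Of 22 mitosis genes 0 were on 1 side in 15 of 15 libraries and 3 were lower after thinning. These shares stand beside 3.80% of all genes higher and 3.50% lower with all UMIs, and the thinned ones beside 1.99% and 2.20%.

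The trabecular share of ventricular barcodes was compared between genotypes over libraries. In KO libraries the share was 33.4% at the lowest, 36.9% at the median and 45.2% at the highest, and in WT libraries 38.4%, 41.9% and 52.2%. The ranges overlapped: KO replicate 1 at 45.2% lay inside the WT range, KO replicate 5 at 38.40% lay just above the lowest WT library at 38.35%, and the other 6 KO libraries lay below all WT libraries, at 37.5% or less. The mean was 37.2% ± 3.65 in KO (n = 8) and 43.1% ± 4.83 in WT libraries (n = 7), a difference of -5.85 percentage points (SE 2.24, two-sided exact permutation p = 0.0186).

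The lower KO share did not hold under several other measures of it. After thinning it was 24.2% ± 3.52 in KO and 27.5% ± 4.40 in WT libraries (difference -3.37, exact permutation p = 0.124). With 1 library left out of the thinned shares the difference was -2.27 to -4.41, and it passed without KO replicate 1 (-4.34, exact permutation p = 0.0408) and without WT replicate 1 (-4.41, exact permutation p = 0.0466). Without Cited1 in the rule it was 23.1% ± 3.24 in KO and 24.8% ± 6.15 in WT libraries (-1.79, exact permutation p = 0.531), and thinned without Cited1, a measure added after seeing the data, 13.4% ± 3.05 and 13.3% ± 3.57 (+0.146, exact permutation p = 0.932). Without Nppb the difference was -7.36 points (exact permutation p = 0.00155), and -4.65 points thinned without Nppb (exact permutation p = 0.0168, added after seeing the data). Without WT replicates 1 to 4 it was -4.29 points (exact permutation p = 0.109). By litter, KO litters 5, 6 and 7 averaged 45.2%, 36.4% and 35.8%, and WT litters 1 to 4 averaged 39.1%, 49.4%, 41.9% and 41.3% (difference -3.77, exact permutation p = 0.457; the smallest p 3 against 4 litters allow is 0.0571). On the shared flow cell the only WT library, replicate 5 at 41.9%, lay above 7 of 8 KO libraries, and the difference within that flow cell was -4.64 points with no test possible.

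The median depth of trabecular-type barcodes was 3385 ± 645 UMIs in KO and 3390 ± 751 in WT libraries (exact permutation p = 0.982), and that of all ventricular barcodes 1731 ± 222 and 1919 ± 537 (exact permutation p = 0.378). Between the alleles the share was 35.8% ± 2.46 in tm4b and 38.6% ± 4.46 in tm4a libraries (n = 4 each, exact permutation p = 0.371, the smallest possible being 0.0286). The difference of -2.76 points was -0.56 without KO replicate 1 (exact permutation p = 0.743) and -4.20 after thinning (exact permutation p = 0.0857). Allele and litter cannot be told apart.

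**Figure D3:**
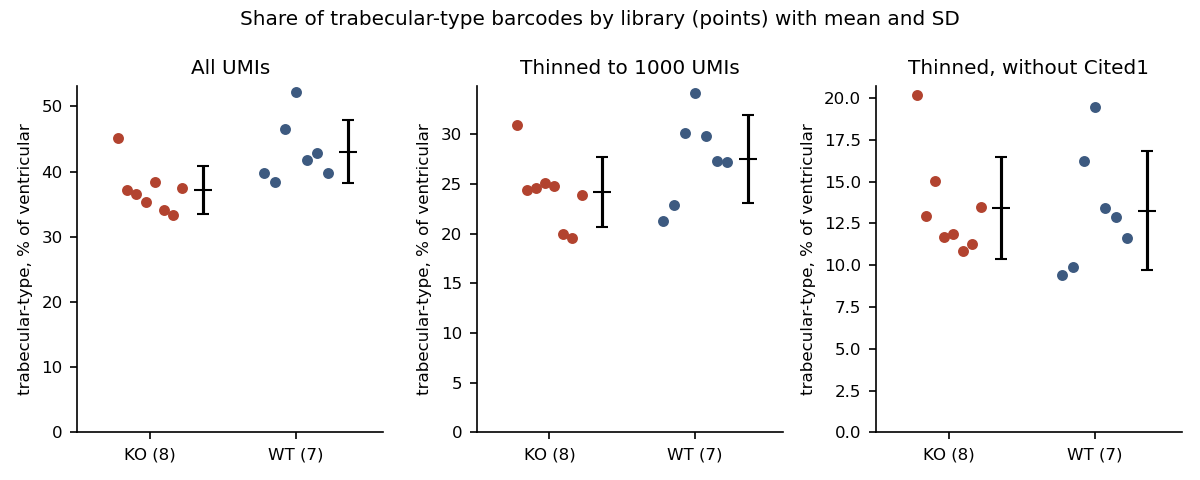
Trabecular-type barcodes as a percent of ventricular barcodes, each point 1 library with the mean and SD beside it, for KO (8 libraries, left) and WT (7 libraries, right) with all UMIs, thinned to 1000 UMIs, and thinned without Cited1 in the rule. The KO mean of 37.2% lies below the WT mean of 43.1% with all UMIs, and the means of 13.4% and 13.3% nearly coincide in the third panel.

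Because the 4 genes chose the members, their genotype effect was tested over all ventricular barcodes, whose choice did not use them. There 136 of 10866 genes passed an adjusted p of 0.05 in edgeR's quasi-likelihood test with Benjamini-Hochberg adjustment, 85 higher in KO (0.782%) and 51 lower (0.469%). Gja5 was among the lower genes. It stood at 20.6, 34.8 and 43.3 CPM (lowest, median, highest) in KO libraries against 39.0, 55.2 and 81.8 CPM in WT libraries. The ranges overlapped through WT replicate 5 at 39.0 CPM, the WT library of the shared flow cell, which lay below 2 of 8 KO libraries. The log2 fold change was -0.84 (SE 0.16, edgeR adjusted p = 0.0206); Gja5 passed in 15 of 15 fits leaving out 1 library and after thinning (-1.01, adjusted p = 0.0141). It did not pass without WT replicates 1 to 4 (-0.51, edgeR adjusted p = 0.0899) or with counts summed per litter (-0.71, adjusted p = 0.348). With flow cell as a covariate the estimate was -0.20 with an edgeR adjusted p of 0.909, so the fall of Gja5 cannot be told apart from a difference between flow cells. Gja5 is also an arterial endothelial gene, and endothelial markers were 0.00701% of UMIs in the median KO and 0.0102% in the median WT library over trabecular-type barcodes; their part in the Gja5 values was not tested.

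The other 3 genes did not pass over all ventricular barcodes. Nppb had a log2 fold change of 0.22 (edgeR adjusted p = 0.656), Cited1 of -0.37 (adjusted p = 0.226) and Gtsf1 of -0.20 (adjusted p = 0.676), and Nppa, outside the rule, of -0.50 (adjusted p = 0.143). Within trabecular-type barcodes, as a description, Nppb stood at 589, 790 and 1146 CPM in KO against 302, 618 and 1064 CPM in WT libraries. Cited1 stood at 876, 1064 and 1314 CPM in KO against 894, 1243 and 1758 CPM in WT libraries. Gtsf1 stood at 273, 342 and 472 CPM in KO against 226, 320 and 629 CPM in WT libraries, and Gja5 at 36.2, 58.7 and 78.4 CPM in KO against 61.3, 89.7 and 137 CPM in WT libraries. The KO and WT ranges overlapped for each of the 4.

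The targeted gene followed the labels in trabecular-type barcodes. Adamts19 stood at 2.84, 5.25 and 11.0 CPM (lowest, median, highest) in KO libraries against 17.5, 24.1 and 58.1 CPM in WT libraries, with no overlap. The log2 fold change was -2.27 (SE 0.28, edgeR adjusted p = 0.00048). Tags come from the 3′ end of the transcript, which may lie outside what the alleles delete. LacZ, a reporter counted with the mouse genes, had 444 UMIs in KO libraries (8 to 121 each) and 0 in 14785437 UMIs of WT libraries. Against a floor of 3 counts over the WT group it was at least 150-fold higher.

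In trabecular-type barcodes 49 of 9534 genes passed the threshold between genotypes, 36 higher in KO (0.378%) and 13 lower (0.136%). The median log2 fold change of all genes was -0.02, and 1365 genes had an unadjusted p under 0.05. Of the 49, Gja5 belongs to the rule and is given above without a test. Of the other 48, 21 had groups that did not overlap. The same values chose these genes, and the share over all tested genes is not given, so this count is a description only. After thinning, 3244 genes could be tested and 9 passed, 2 higher and 7 lower, so the balance of directions turned round. Of the 48, 29 were tested there and 29 kept their direction, and 3 passed: Atf3, Gm10076 and Snhg5.

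Ddit4, a stress-induced inhibitor of mTORC1, stood at 27.4, 46.5 and 69.3 CPM in KO against 13.6, 18.1 and 30.2 CPM in WT libraries, with overlap at the lowest KO library. Its log2 fold change was 1.19 (SE 0.19, edgeR adjusted p = 0.0046). Atf3, a stress-induced factor, stood at 243, 380 and 407 CPM in KO against 147, 187 and 322 CPM in WT libraries; the highest WT library lay inside the KO range (0.83, SE 0.15, adjusted p = 0.0202). Pcgf5, a Polycomb subunit, stood at 41.3, 68.8 and 93.3 CPM in KO against 31.5, 36.4 and 39.8 CPM in WT libraries, with no overlap (0.88, SE 0.16, adjusted p = 0.0202). The mitochondrial tyrosine tRNA mt-Ty stood at 7.61, 44.8 and 73.3 CPM in KO against 0.825, 10.7 and 21.5 CPM in WT libraries, with overlap (1.90, SE 0.41, adjusted p = 0.0363). The other largest rises were H19_1, a second row of H19 (1.66), Gm129 (1.24), Tmem64 (0.91), 5430416N02Rik (0.88) and Bcr (0.85).

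Plxnd1, a semaphorin receptor, stood at 2.16, 4.42 and 6.76 CPM in KO against 5.91, 10.3 and 14.7 CPM in WT libraries (-1.21, SE 0.26, edgeR adjusted p = 0.0313). Agrn, which encodes the matrix proteoglycan agrin, stood at 36.1, 43.1 and 54.1 CPM in KO against 52.8, 65.7 and 102 CPM in WT libraries (-0.72, SE 0.14, adjusted p = 0.0250). Both overlapped narrowly. Dysf, the membrane repair protein of muscle, had a log2 fold change of -0.85, and Ssbp4 of -1.10, Tbc1d16 of -0.99, C1qtnf4 of -0.91 and Gm1673 of -0.78. Rpl36-ps3 (-1.48) and Gm10076 (-1.42) also fell; both are pseudogene rows, whose reads may come from genes that share their sequence, so their values are uncertain.

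Few genes of the muscle lists passed, beside 0.378% of all genes higher and 0.136% lower. Of 21 tested trabecular and conduction genes outside the rule 0 passed, at a median log2 fold change of -0.27, with 4 of 21 positive; of 8 compact wall genes 0 passed (median -0.06). The 30 sarcomere and Z disc genes had 1 rise and 0 falls (median 0.04). This was Pdlim5, a Z disc scaffold, at 403, 489 and 582 CPM in KO against 329, 341 and 383 CPM in WT libraries, with no overlap (0.48, SE 0.10, edgeR adjusted p = 0.0269). Calcium handling (17 genes), ion channels (10), cardiac transcription factors (23), nuclear oxidative phosphorylation (65), glycolysis (22), fatty acid use (19) and mitochondrially encoded genes (7) had 0 passing, with medians of -0.05, -0.07, -0.06, -0.16, -0.08, -0.01 and 0.22. Log2 fold changes were above 0 in 6 of 65 nuclear oxidative phosphorylation, 4 of 22 glycolysis and 6 of 7 mitochondrially encoded genes, and in 4476 of 9516 genes outside the rule. Nppa itself stood at 2302, 4425 and 6020 CPM in KO against 4682, 5534 and 6529 CPM in WT libraries, with overlap (-0.35, SE 0.16, adjusted p = 0.314).

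Single members of other lists passed, again beside 0.378% of all genes higher and 0.136% lower. Of 11 Notch, neuregulin and ephrin genes 1 rose (median -0.20): Hbegf, an epidermal growth factor receptor ligand, at 69.4, 86.4 and 110 CPM in KO against 46.6, 59.0 and 64.7 CPM in WT libraries, with no overlap (0.58, SE 0.12, edgeR adjusted p = 0.0224). Of 23 DNA replication genes 1 rose (median 0.08): Pcna, the replication clamp, at 170, 192 and 280 CPM in KO against 87.5, 133 and 185 CPM in WT libraries, with overlap (0.66, SE 0.15, adjusted p = 0.0435). Of 25 mitosis genes 1 rose (median 0.16): Kif23, a kinesin of cell division (0.74, SE 0.17, adjusted p = 0.0463). Of 16 cell cycle brakes and imprinted growth genes 1 rose (median 0.06), H19_1. Of 7 ADAMTS and versican matrix genes 1 rose (median -0.15): Adamts1, a matrix metalloprotease, at 106, 134 and 155 CPM in KO against 69.6, 91.1 and 113 CPM in WT libraries, with overlap (0.53, SE 0.12, adjusted p = 0.0427). Of 5 natriuretic peptide genes and their partners 0 passed (median -0.12).

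Of 27 immediate early and heat shock genes 3 rose and 0 fell (median 0.22): Atf3, Ier3 and Hspb8, beside 0.378% and 0.136% of all genes. Ier3, an early response gene, stood at 163, 245 and 364 CPM in KO against 99.5, 152 and 175 CPM in WT libraries, with overlap (0.77, SE 0.16, edgeR adjusted p = 0.0262). Hspb8, a small heat shock protein, stood at 129, 155 and 187 CPM in KO against 68.1, 109 and 121 CPM in WT libraries, with no overlap (0.57, SE 0.12, adjusted p = 0.0313). Of the other genes past the threshold, 6 were singled out after their values were seen and belong to no list tested. Atf4, a translation-controlled transcription factor of stress responses, stood at 318, 345 and 428 CPM in KO against 136, 248 and 280 CPM in WT libraries, with no overlap (0.66, SE 0.13, adjusted p = 0.0224). Hspa5, the chaperone of the endoplasmic reticulum, stood at 1199, 1594 and 1818 CPM in KO against 896, 1059 and 1198 CPM in WT libraries, the lowest KO and highest WT library nearly equal (0.58, SE 0.11, adjusted p = 0.0224). Ddit3 had a log2 fold change of 0.78 (adjusted p = 0.0324), the co-chaperone gene Dnajb9 of 0.58 (adjusted p = 0.0427), Hsp90b1 of 0.49 (adjusted p = 0.0346) and the growth arrest gene Gadd45b of 0.69 (adjusted p = 0.0194).

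**Figure D4:**
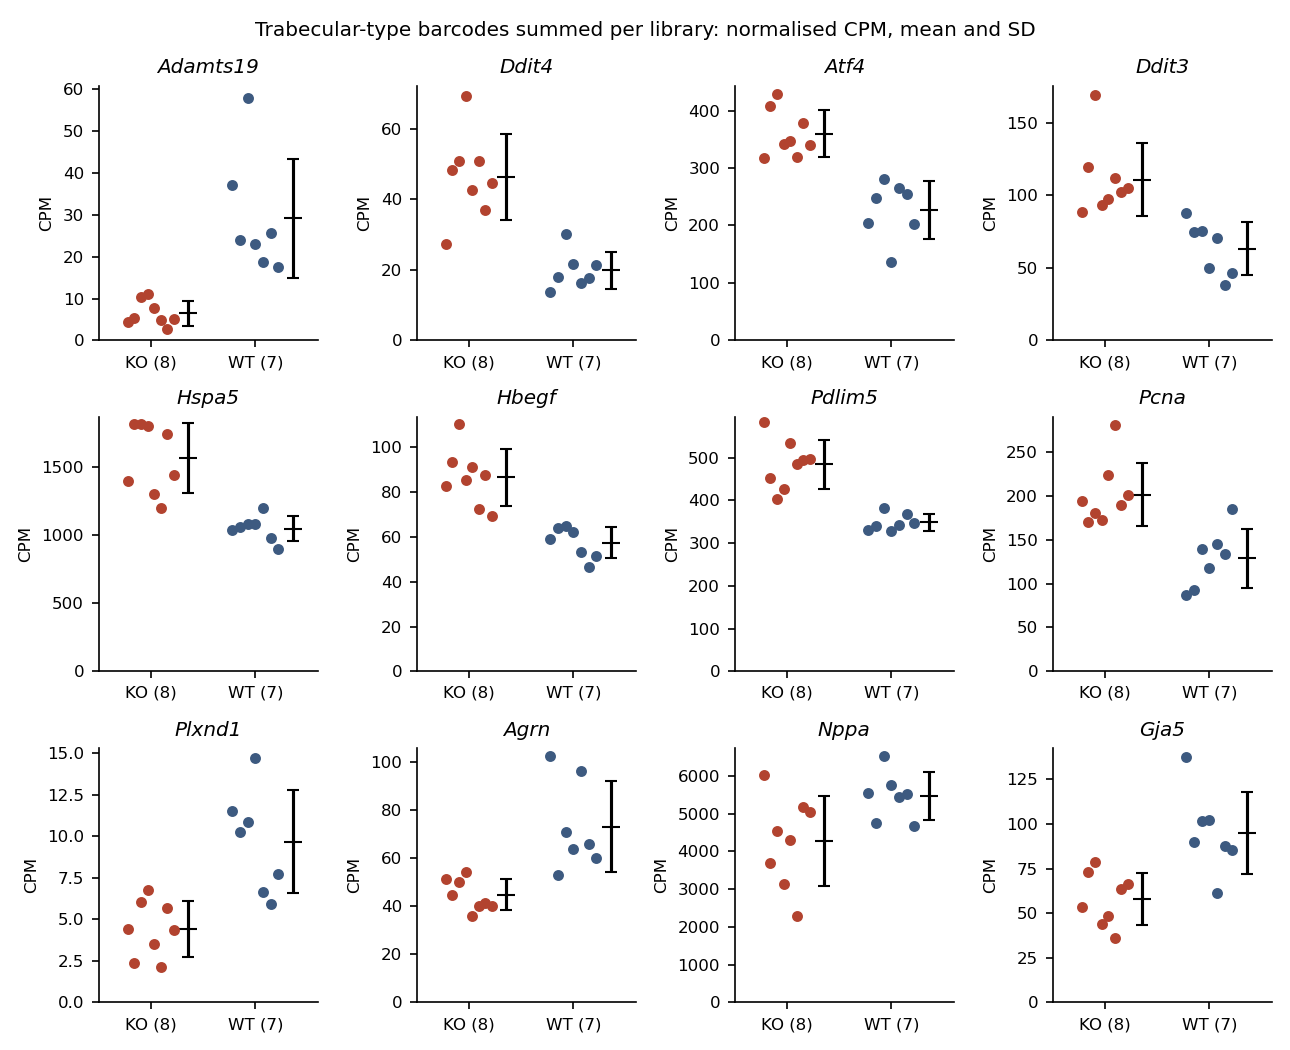
Normalised CPM of 12 genes in trabecular-type barcodes summed per library, each point 1 library with the mean and SD beside it, for KO (8 libraries, left) and WT (7 libraries, right). Adamts19, Atf4, Hbegf and Pdlim5 show no overlap between genotypes, and Nppa and Gja5, a gene of the rule shown without a test, overlap.

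Flow cell and genotype overlap in these libraries. Once flow cell entered the edgeR fit as a covariate, the genotype effect rested on WT replicate 5 alone against the KO libraries. With 1 WT library on that side, this fit cannot tell an absent effect from one too uncertain to call. The log2 fold change there was -1.59 for Adamts19 and 8.94 for LacZ, and 48 of the 48 estimates kept their direction. WT replicate 5, sequenced with the KO libraries and itself among the libraries that chose the genes, lay outside the KO range on the WT side for 39 of 48 genes and inside it for 9. In fits leaving out 1 library at a time, 6 of 48 passed in 15 of 15: Adamts19, LacZ, Ddit4, Snhg5, Gadd45b and Fblim1, the last 3 outside the rule for names. The count without WT replicate 6 was 7 and without WT replicate 3 was 196, which included all 49. Without KO replicates 1, 2, 5, 6, 7 and 8 it was 18, 30, 18, 23, 16 and 23, and without WT replicates 2, 4 and 5 it was 32, 23 and 21.

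Most of the same changes were measured in ventricular barcodes with 0 UMIs of the 4 genes. Of the 48 genes 43 were tested there, 43 had the same direction, and 6 passed. In that fit 16 of 7998 genes passed, 8 higher (0.100%) and 8 lower (0.100%). Hspa5 averaged 1535 ± 326 CPM in KO and 913 ± 84.7 CPM in WT libraries there (0.75, edgeR adjusted p = 0.0146) and Atf4 429 ± 39.2 and 262 ± 58.5 CPM (0.71, adjusted p = 0.0191). The 0-UMI and trabecular-type sums come from the same libraries, so they share any library effect.

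The genotype effect itself was tested for a difference between the groups of barcodes. In 2 of 10393 genes (0.0192%) it differed, and 0 of the 48 genes were among them, the lowest adjusted p being 0.995. Ctla2a averaged 17.1 ± 9.86 CPM in KO and 15.1 ± 5.39 CPM in WT libraries in trabecular-type barcodes, and 18.4 ± 3.29 and 55.7 ± 38.6 CPM in 0-UMI barcodes, a difference of log2 effects of 1.58 (SE 0.27, edgeR adjusted p = 0.00215). Timp3, an inhibitor of matrix metalloproteases, averaged 108 ± 11.5 CPM in KO and 84.1 ± 15.4 CPM in WT libraries in trabecular-type barcodes, and 87.0 ± 7.83 and 109 ± 34.0 CPM in 0-UMI barcodes (0.65, SE 0.11, adjusted p = 0.00215). Endothelial markers made up 0.00701% and 0.0102% of UMIs in the median KO and WT library in trabecular-type barcodes. In 0-UMI barcodes they made up 0.0121% and 0.0174%, so they were lower in KO in both groups of barcodes. The fall was larger in 0-UMI barcodes: the 8 tested endothelial markers had a median log2 fold change of -0.88 there and -0.30 in trabecular-type barcodes. Their part in the Ctla2a and Timp3 values was not tested. After thinning, an alternative added after seeing the data, 0 of 6631 genes passed in edgeR. Of these genes 257 had an unadjusted p under 0.05, a smaller share than the 0.05 that chance alone would give. Nppa had an effect of -0.35 in trabecular-type and -0.83 in 0-UMI barcodes (adjusted p = 0.0213 in the second), and the difference of 0.41 did not pass over all genes (adjusted p = 0.815).

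**Figure D5:**
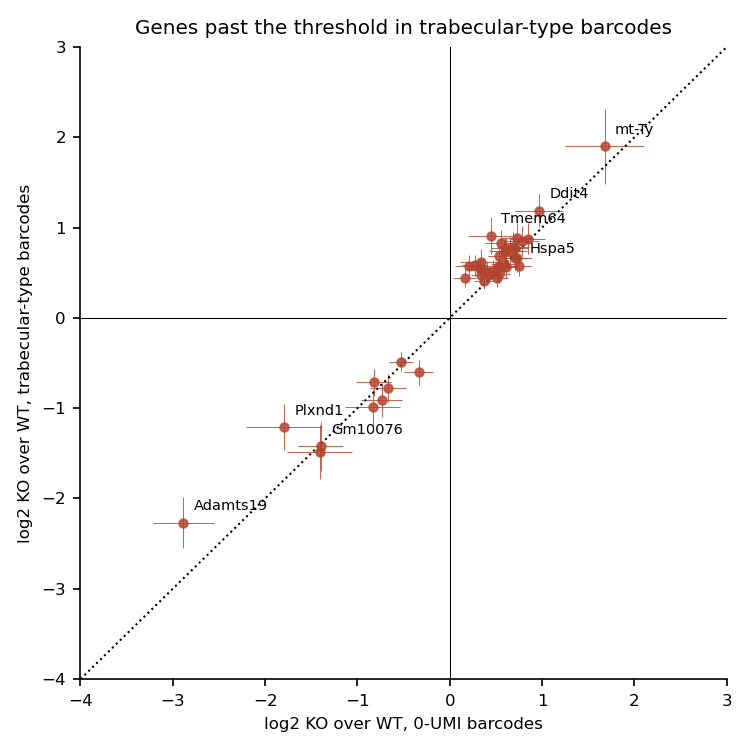
Log2 fold change of KO over WT with its SE in trabecular-type barcodes (vertical axis) against that in 0-UMI ventricular barcodes (horizontal axis) for the 43 genes past the threshold in trabecular-type barcodes that were tested in both; the dotted line marks equal effects. The points lie along it, with Adamts19 at -2.27 and -2.88 at the lower left and mt-Ty at 1.90 and 1.68 at the upper right.

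Markers of other cell types were found in members. Of trabecular-type barcodes 25.9% held 2 or more UMIs of endothelial, mesenchymal or leukocyte markers, and of 0-UMI barcodes 18.1%, at the lower depth given above. Of 10 endothelial, 8 mesenchymal, 7 leukocyte and 9 erythroid markers 0 were at 0 UMIs in either genotype. Endothelial markers ranged over 0.00469% to 0.0161% of UMIs in KO and 0.00598% to 0.0132% in WT libraries. Mesenchymal markers ranged over 0.0153% to 0.0587% and 0.0171% to 0.0513%, and leukocyte markers over 0.00479% to 0.0222% and 0.00405% to 0.0108%. Lyz2 gave 962 of the 1204 leukocyte marker UMIs in KO and 883 of 1093 in WT libraries, so this sum was mostly 1 gene. In 0-UMI barcodes of KO libraries Lyz2 gave 87 of 268. How much Lyz2 added to the 25.9% of trabecular-type barcodes was not tested. Erythroid markers ranged over 0.0374% to 0.370% in KO and 0.0843% to 1.08% in WT libraries, and the 6 tested haemoglobin genes had a median log2 fold change of -1.87 with 0 passing. With barcodes that held 2 or more UMIs of other cell types' markers left out, 61 genes passed between genotypes, 34 of them among the 49. The part of these markers in the listed genes was not tested further.

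The KO libraries were also compared by allele. In trabecular-type barcodes 691 of 9426 genes passed between tm4b and tm4a, 362 higher in tm4b (3.84%) and 329 lower (3.49%), with 4 libraries each. Of the 691, 5 belong to the rule that chose the barcodes, Cited1 among them, so their passing is not read as a result. Nuclear oxidative phosphorylation genes were lower in tm4b in 40 of 65 (median log2 fold change -0.31) and glycolysis genes in 11 of 22 (-0.35), beside a median of 0.01 over all genes. Sarcomere and Z disc genes were lower in 3 and higher in 1 of 30. The connexin gene Gjc1, singled out after its values were seen, averaged 60.5 ± 4.52 CPM in tm4b and 33.7 ± 3.84 CPM in tm4a libraries (0.85, SE 0.13, edgeR adjusted p = 0.0027). Among the largest changes were Scand1 (1.75), D430001F17Rik (1.57), Gm20417 (1.51) and Slc19a2, a thiamine transporter (1.45), on the higher side and Grcc10 (-1.47) on the lower. Nppa averaged 4237 ± 1333 CPM in tm4b and 4372 ± 1250 CPM in tm4a libraries (edgeR adjusted p = 0.922). Of the genes of the rule, as a description, Gja5 averaged 54.0 ± 14.1 and 62.6 ± 16.2 CPM and Cited1 963 ± 75.7 and 1197 ± 98.4 CPM in tm4b and tm4a libraries. All tm4b libraries are of litter 7 and no tm4a library is, so allele and litter cannot be told apart. Leaving out 1 library gave 320 to 829 genes.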

How the data were processed

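The authors deposited raw UMI counts, one whole number for each gene in each barcode. The submitters' processing notes name bcl2fastq 2.17, Seurat 2.1 and the build mm10 without a role for any of them. The table held 16809 genes and 123939319 UMIs, and 0 columns belonged to no sample. Barcodes were chosen by the rule given above, which used no clustering, and no doublet caller was run; instead 1 alternative dropped barcodes with 2 or more UMIs of other cell types' markers. The members, gene lists and tests were chosen with earlier results of these data known.

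Counts were summed per library and tested with edgeR 4.0.16 in R 4.3.3 (TMM, filterByExpr, quasi-likelihood test, Benjamini-Hochberg over all genes tested, threshold 0.05). The test was checked on simulated data with known changes. CPM in genotype comparisons are normalised by TMM over the tested genes; others are scaled to all UMIs of the sum. Shares were compared by two-sided exact permutation over 6435 label choices. The difference of effects used the library as a block. Named genes were Adamts19, LacZ and Nppa, the 10 largest rises and falls past the threshold, up to 4 genes per list by lowest p, the 15 highest and lowest ratios, and 6 between alleles; exceptions are marked. WT replicate 4 carries replicate number 3 in its description, and its title was used. No label ties a library to 1 embryo, so p-values measure the spread between these libraries, which may be technical. Alternatives were DESeq2 1.42.0, flow cell, a replicate block, sums per litter, thinning to 1000 UMIs, other minimums, left-out genes and left-out libraries. Same-numbered KO and WT libraries come from different litters and their deviations correlated at -0.501 to 0.0488, so the numbers do not pair them. Promoters are RefSeq's (GRCm38.p6). Some genes that these rules name are not reported here.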

Additional observations from a re-analysis of the deposited data

Results flagged for a closer look

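Single libraries stood apart from the others of their genotype in 8 of 112 groups of libraries examined, where chance flags about 1 in 20. KO replicate 1 had a trabecular share of 45.19% of ventricular barcodes, above the other KO libraries. KO replicate 3 was highest of the KO libraries in trabecular-type barcodes for LacZ (104.2 CPM), 5430416N02Rik (79.24 CPM), Rpl36-ps3 (31.87 CPM) and Ddit3 (168.8 CPM). KO replicate 4 was lowest for Dnajb4 (109.1 CPM). WT replicate 2 was highest of the WT libraries for Atf3 (321.7 CPM) and WT replicate 4 for Gm10076 (393.0 CPM).

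The KO effect differed between trabecular-type and 0-UMI ventricular barcodes, by a test of the difference itself in edgeR over all genes, for Ctla2a by 1.576 and for Timp3 by 0.6493 on the log2 scale (adjusted p = 0.00215 each).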

How the results depend on the processing

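The trabecular share differed by -5.85 points between KO and WT libraries, and by -6.99 to -4.33 with 1 library left out, past the threshold each time. It no longer passed at 3 or more UMIs of the 4 genes (-4.59), without Cited1 (-1.79), as a share of all kept barcodes (-3.35), thinned (-3.37), without WT replicates 1 to 4 (-4.29) or per litter (-3.77). Added after seeing the data, the thinned difference was -2.72 without Gja5, -2.63 without Gtsf1, -3.94 without WT replicates 1 to 4, -4.65 without Nppb (past the threshold), and turned to 0.146 without Cited1. With a replicate block it was -5.88 (exact permutation p = 0.0781).

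Against 49 genes between genotypes in trabecular-type barcodes, DESeq2 called 161, flow cell as a covariate 0, the replicate block 4, sums per litter 3, leaving out WT replicates 1 to 4 538, thinning 9 (2 higher and 7 lower, 3 among the 49), a minimum of 3 UMIs 31, and leaving out 1 library 7 to 196. Against 136 in all ventricular barcodes, these were 366 (DESeq2), 1 (flow cell), 6 (replicate block), 2 (per litter), 826 (without WT replicates 1 to 4), 23 (thinned, added later) and 35 to 385 (1 library left out). Against 16 in 0-UMI barcodes, DESeq2 called 99 and flow cell, added later, 6. Against 2 genes for the difference of effects, no low-count filter gave 9 and thinning, added later, 0. Against 691 between alleles, leaving out 1 library gave 320 to 829. The replicate block left 7 of 52 named genes on their side of the threshold; as the numbers do not pair the libraries, a lost call is no weaker effect. Genes higher in trabecular-type barcodes in 15 of 15 libraries numbered 67 thinned and 81 without other cell markers, and lower ones 74 and 72. Gtsf1 over all ventricular barcodes (-0.20) turned to 0.0461 with flow cell, 0.0506 per litter and ranged over -0.316 to 0.044 with 1 library left out, the last without WT replicate 4. The cause of these changes was not tested. Thinning left fewer members (135 to 366 per library), so fewer genes could pass.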
